A study of Mus musculus with 2 samples.

Results

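The genes described here, 10 in all, build the contacts, pores and membrane pits of the blood vessel lining, and were followed in endothelial cells of normal mouse mammary glands and of E0771 mammary tumors. All 10 were chosen by name, out of 14976 genes listed in both count tables. They are the claudins Cldn5 and Cldn15, occludin (Ocln), the scaffold Tjp1, the adhesion molecules Esam, Jam2 and Jam3, the fenestral diaphragm gene Plvap, and the caveola genes Cav1 and Cavin1. The study sorted CD45-/CD31+ cells, live cells without the leukocyte marker CD45 and with the endothelial marker CD31, and sequenced 1 single-cell library per condition. Normal endothelial cells (NECs) came from pooled mammary glands of C57BL/6 mice aged 6 to 8 weeks. Tumor endothelial cells (TECs) came from pooled tumors grown after orthotopic implantation of E0771, a mouse mammary carcinoma line, so each group is a pool in which single animals cannot be told apart. The labels name no genotype or treatment for either group and no age for the tumor hosts, and some labels of the normal library name tumor cells although its title says normal.

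In vessels, tight junctions seal neighboring endothelial cells. Claudins form their strands, occludin joins them, and the ZO-1 scaffold made by Tjp1 ties them to actin. Esam and the Jam proteins are immunoglobulin-like adhesion molecules at the same contacts. Plvap forms the diaphragms of fenestrae and of caveolae, and caveolin-1 (Cav1) with cavin-1 (Cavin1) shapes caveolae, the small pits of the plasma membrane. Endothelia differ in these genes by vessel type, and Plvap is known as a gene of permeable vessels.

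Cells were kept if they had at least 200 genes, under 10% mitochondrial counts, no unique molecular identifier (UMI, 1 captured RNA molecule) of Ptprc, Myh11, Epcam or Cspg4, and at least 1 UMI of Cdh5 or Pecam1. In the tumor library Cdh5 plus Pecam1 also had to exceed Rhox5 plus Hmga2 plus Krt8. This kept 4940 of 9047 NEC barcodes with 17327221 UMIs and 261 of 704 TEC barcodes with 4646103 UMIs. The median was 2976.5 UMIs per NEC and 16989 per TEC. Both Cdh5 and Pecam1 were detected in 82.0% of the NECs and 91.6% of the TECs. In the tumor library 14 of the kept cells passed the cancer-cell rule by a single UMI. Both tables shared 3 barcodes, of which 0 were kept in both. The NECs carried RNA of salivary secretory genes at a summed 2176 counts per 1000000 UMIs (CPM), led by Bpifa2 at 1039 CPM, and 8 of the 9 markers had UMIs, whereas the TECs had no UMI of them, with 1 of the 9 listed in the tumor table.

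Pericyte markers summed to 152 CPM in the NECs, with 7 of 8 genes detected, Rgs5 as the most abundant at 107 CPM and Cspg4, removed by the rule, at 0. In the TECs they summed to 44.1 CPM with 6 of 8 detected. Smooth muscle markers summed to 148 and 10.3 CPM, epithelial markers to 141 and 7.3 CPM, and immune markers to 15.9 and 18.1 CPM, respectively. The part of these other cells in the results was not tested. With 1 library per group there was no replicate, so no test was made. All intervals below are 95% intervals for counting error only.

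The normal cells were clustered without the 10 genes, their relatives, Cdh5 or Pecam1, and 4 vessel classes were named from markers. They were arterial-like (671 cells, with Bmx, Sema3g and Fbln5), venous-like (467, with Lbp, Nr2f2 and Vcam1), capillary-like (1712, with Timp4 and Lpl) and like high endothelial venules (HEV-like, 91, with Glycam1 and Fut7). The other NECs were in none of these classes, so comparisons by class leave them out. They fell into unnamed clusters of 529, 491, 279, 236, 211 and 46 cells, a mitotic-like cluster of 94 and a salivary-like cluster of 113. TECs fell into an interferon-like (104 cells), a mitotic-like (53) and a tip-like (47) cluster, plus an unnamed cluster of 57 shallow cells with a median of 2198 UMIs.

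**Figure D1:**
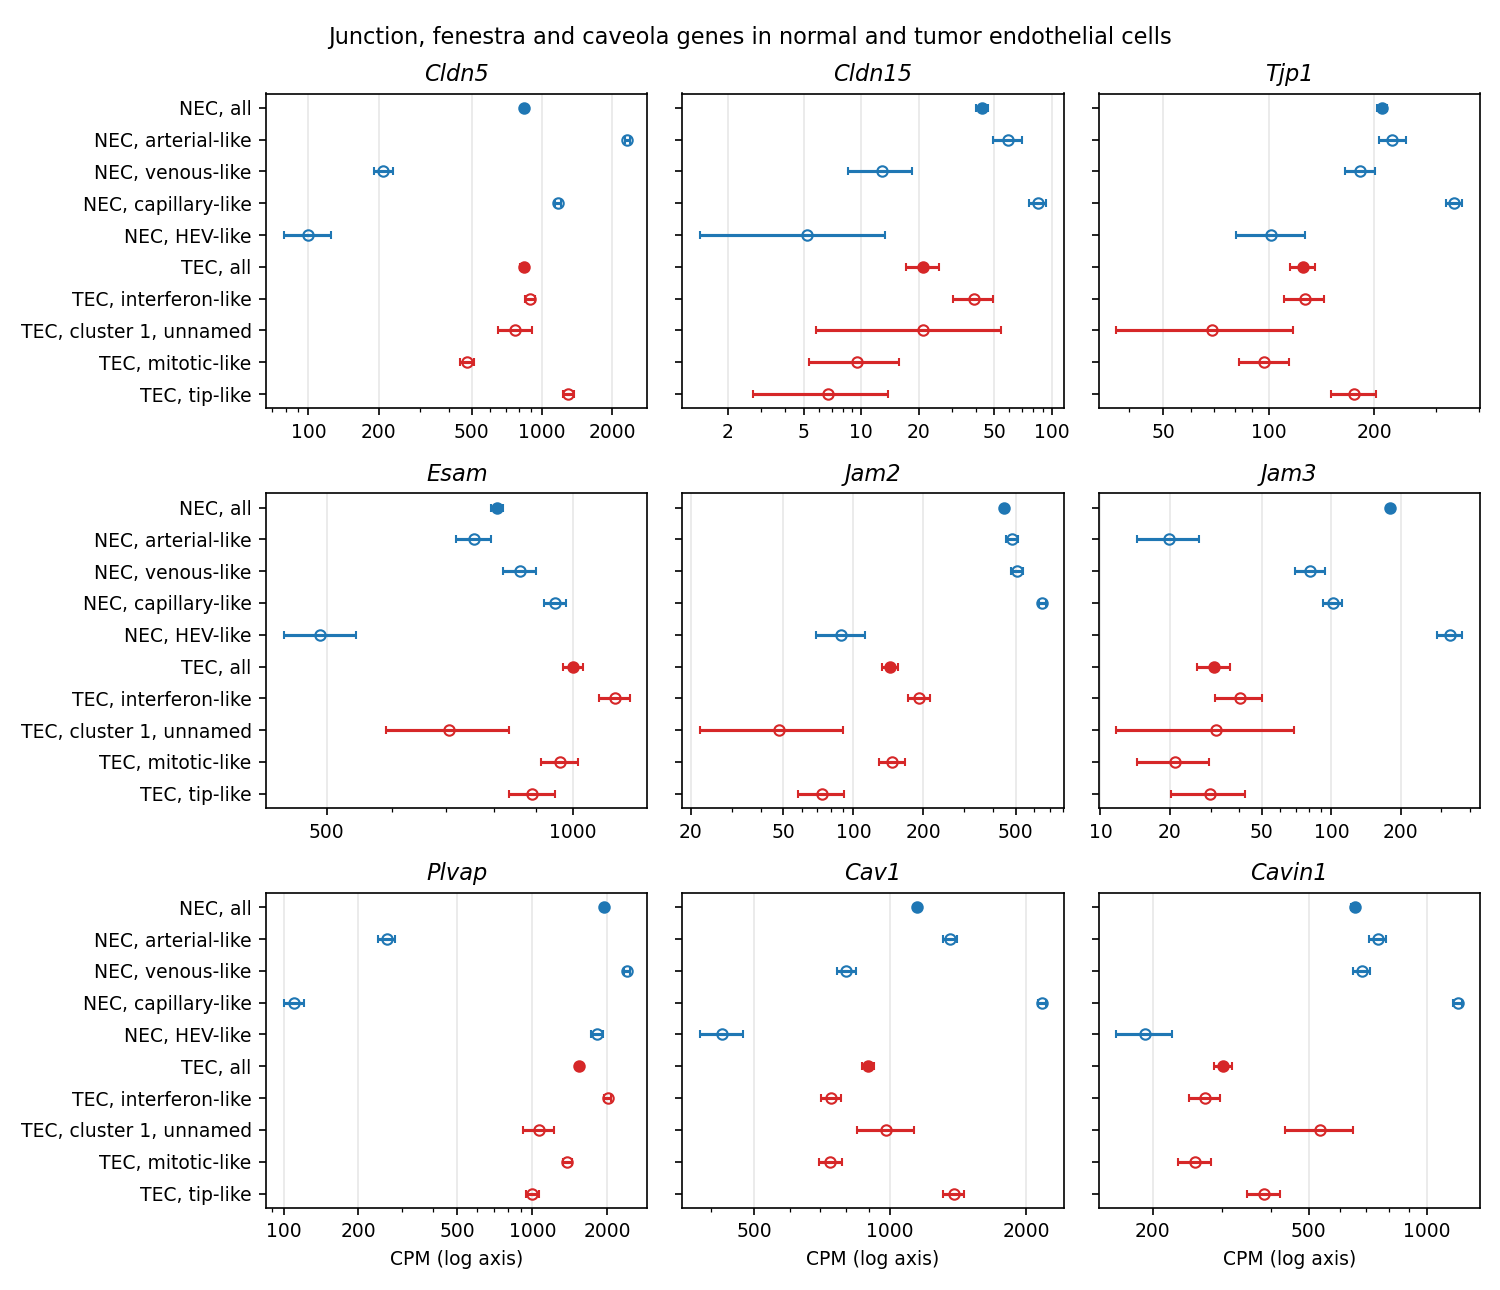
Level of each gene in CPM on a log axis, with the 95% Poisson interval, in NECs (blue) and TECs (red); filled points are all cells of a library and open points are vessel classes or TEC clusters. Cldn5 runs from 99.3 to 2315 CPM over the normal classes and from 478 to 1292 CPM over the TEC clusters.

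Arterial-like NECs were rich in Cldn5, venous-like and HEV-like NECs were rich in Plvap, and TECs had both genes. Capillary-like NECs were rich in Cldn5 as a pooled class (1171 CPM), carried by the cluster led by Gpr160, Gstt2 and Aqp7 (624 cells, 2024 CPM). The other capillary-like clusters, of 733 and 355 cells, had 630 and 754 CPM, against 833 CPM in TECs. As a pooled class, capillary-like cells were high in Cldn5, Cldn15, Tjp1, Cav1 and Cavin1 and low in Plvap. Plvap was high in venous-like and HEV-like cells, where Cldn5 and Cldn15 were low. Against all NECs, the log2 ratio of TECs was 0.00 for Cldn5 and -0.34 for Plvap. Against capillary-like cells it was -0.49 for Cldn5 and 3.80 (3.67 to 3.94) for Plvap, and against venous-like cells 1.99 for Cldn5 and -0.65 for Plvap. The capillary-like clusters differed in the direction of Cldn5. Its ratio was -1.28 against the Gpr160-led cluster, but 0.40 (0.31 to 0.50) and 0.15 (0.02 to 0.27) against those of 733 and 355 cells. Over all cells, 4 of the 9 genes with enough counts were lower by 2-fold or more in TECs than in NECs (Jam3, Jam2, Cavin1 and Cldn15), against 17.7% of all 8218 genes tested. None was higher by 2-fold, against 10.3% of all genes. The median log2 ratio of TECs over NECs was -0.75 for the 9 genes and -0.09 for all genes. These ratios depended on the cell rule: without the gate on Cdh5, Pecam1 and the cancer genes all 9 were lower by 2-fold, and with marker-bearing cells kept 2 were. Cldn15 lay near the 2-fold limit, and the count was 3 without it in 5 other settings, among them both Cdh5 and Pecam1 required (-0.95) and tumor cells with any cancer-gene UMI left out (-0.89). Since the vessel classes differ so much, a level over all NECs depends on how many cells of each class were captured, and that share and the RNA per cell cannot be told apart in it.

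The tight junction strand genes came first. Cldn5 (chr16:18776847-18778262, + strand, GRCm38), the main claudin of endothelium, was at 833 CPM in NECs and 833 CPM in TECs. By vessel class its level was 2315 CPM in arterial-like, 1171 in capillary-like, 209 in venous-like and 99.3 in HEV-like cells, each class outside the interval of the others. Unnamed NEC clusters went beyond this range. The cluster led by Mt2, Car3 and Cfd (211 cells), which also carried the capillary markers Car4, Gpihbp1, Cd36, Fabp4 and Aqp7, had 2715 CPM. The cluster led by Arc (236 cells) had 37.9 CPM. TECs were lower than arterial-like cells, with a log2 ratio of -1.47 (-1.53 to -1.41), and 3.98-fold higher than venous-like cells. Within the tumor, tip-like cells had the highest level (1292 CPM) and mitotic-like cells the lowest (478 CPM).

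Cldn15 (chr5:136966616-136975858, + strand), another claudin, was at 43.0 CPM in NECs and 21.1 in TECs, with a log2 ratio of -1.03 (-1.35 to -0.72). Its normal levels were 84.2 CPM in capillary-like, 58.7 in arterial-like, 12.8 in venous-like and 5.23 in HEV-like cells, where 4 UMIs were counted. One capillary-like cluster, led by Gpr160, Gstt2 and Aqp7, reached 163 CPM, the highest of the NEC clusters. In the tumor the interferon-like cluster was at 39.0 CPM and the tip-like cluster at 6.73 CPM. At 1900 UMIs per cell, the depth to which all cells were thinned for shares, Cldn15 was found in 7.96% of NECs and 3.77% of TECs.

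Ocln (chr13:100496507-100552718, - strand) was barely detected in endothelium. NECs had 13 UMIs (0.75 CPM, 0.40 to 1.28) and TECs had 1 (0.215 CPM, 0.01 to 1.2), so a difference was not detectable at this depth, and the gene did not reach the 10 CPM needed for the comparison. Tjp1 (chr7:65296165-65527781, - strand) was at 211 CPM in NECs and 125 in TECs, with a log2 ratio of -0.75 (-0.88 to -0.63). Capillary-like cells had 339 CPM, arterial-like cells 226, venous-like cells 183 and HEV-like cells 102. TECs were below the first 3 of these, and their interval overlapped that of the HEV-like cells.

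The adhesion molecules differed among themselves. Esam (chr9:37528078-37538319, + strand) was the most even of the set, with 951 CPM in capillary-like, 860 in venous-like, 756 in arterial-like and 491 in HEV-like cells. Its highest normal class was 1.94-fold above its lowest, while the other 8 tested genes spread by 2-fold or more, as 40.9% of all genes did. At 1000 CPM in TECs and 807 in NECs its log2 ratio was 0.31 (0.26 to 0.36). It was the only member above every pooled normal vessel class, as 33.0% of all genes were, and it exceeded the pooled capillary-like level by 1.05-fold. Single NEC clusters were above TECs. The capillary-like cluster of 733 cells had 1094 CPM, with a log2 ratio of TECs over it of -0.13 (-0.21 to -0.05). The unnamed cluster led by Tmem35a, Pacsin1 and Penk had 1225 CPM. With 10 or 30 principal components, or a resolution of 0.4, Esam was no longer above every class. Without the gate on endothelial and cancer genes its ratio over all NECs was -1.33. No member was below every class, as 27.4% of all genes were, although with a mean over cells Tjp1 was, at 130 CPM against 138 in HEV-like cells.

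Jam2 (chr16:84774123-84825928, + strand) was lower in TECs than in NECs, at 144 and 445 CPM, a log2 ratio of -1.62 (-1.74 to -1.51). Capillary-like, venous-like and arterial-like cells had 652, 506 and 481 CPM, and HEV-like cells had 88.8. At equal depth 54.9% of NECs and 25.5% of TECs had a UMI of Jam2. Jam3 (chr9:27097384-27155421, - strand) had the lowest TEC ratio of the set, 31.0 CPM against 180 in NECs, a log2 ratio of -2.54 (-2.79 to -2.29). Its normal order differed from that of Jam2, from 327 CPM in HEV-like cells to 101 in capillary-like, 81.1 in venous-like and 19.9 in arterial-like cells. Unnamed NEC clusters reached higher, with 591 CPM in the cluster led by Meis2 and 377 CPM in the cluster led by Ifi207 and Ier3. TECs were above the pooled arterial-like cells (log2 0.64, 0.15 to 1.16) and below the other 3 pooled classes. The interval held 0 against the arterial-like cluster led by Gja5 and Htra1 (0.47, -0.11 to 1.10). It also held 0 against the venous-like cluster led by Cysltr1 and Ackr1 (-0.19, -0.70 to 0.35). In the tumor, interferon-like TECs had 40.1 CPM and tip-like TECs 29.8 CPM. Mural-marked cells of the normal library, left out by the rule, had Jam3 at 94.4 CPM.

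**Figure D2:**
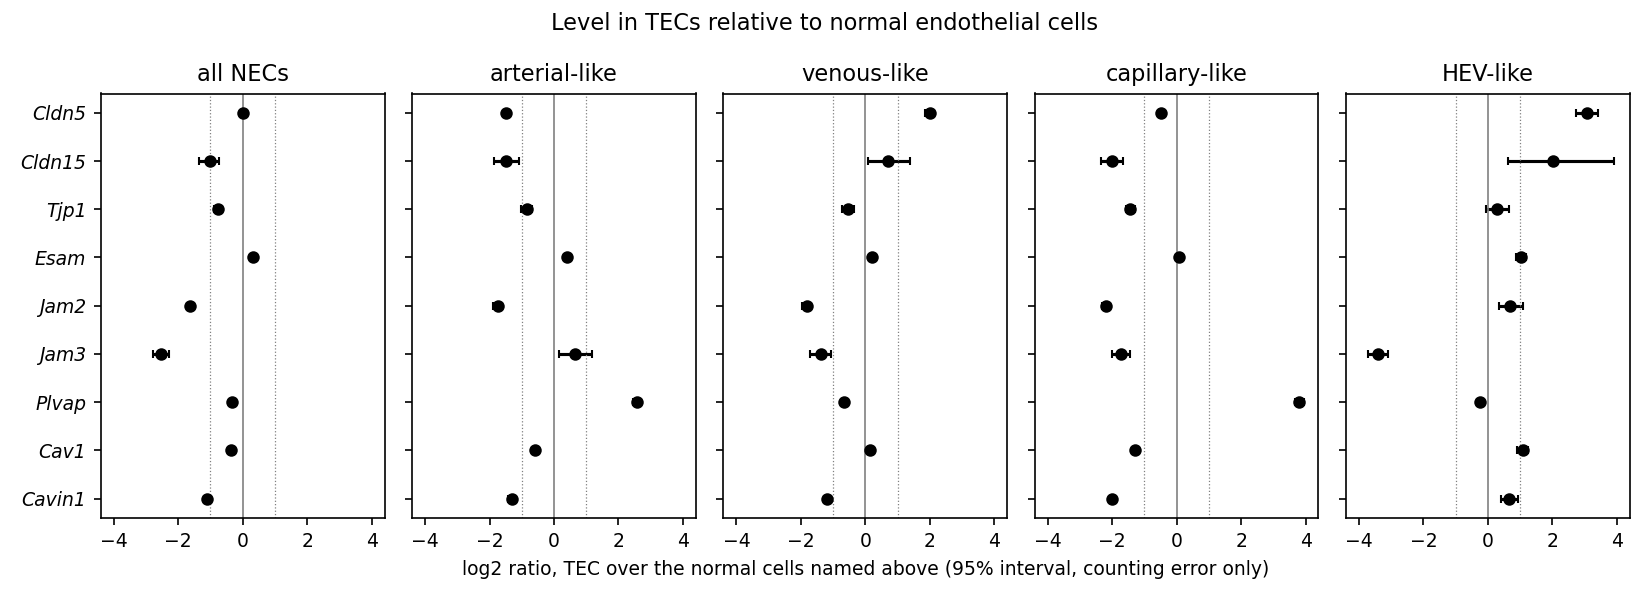
Log2 ratio of each gene in TECs over all NECs and over each normal vessel class, with 95% counting intervals; dotted lines mark 2-fold. Plvap lies far above the capillary-like (3.80) and arterial-like (2.56) cells and below the venous-like cells (-0.65). Cldn5 lies the other way round for these pooled classes, although TECs exceeded the capillary-like clusters of 733 cells (0.40) and 355 cells (0.15).

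Plvap (chr8:71497765-71511752, - strand) was at 1940 CPM in NECs and 1534 in TECs, a log2 ratio of -0.34 (-0.38 to -0.30). Normal classes split widely, with 2406 CPM in venous-like, 1824 in HEV-like, 259 in arterial-like and 110 in capillary-like cells. Unnamed NEC clusters reached higher, to 5906 CPM in the cluster led by Tmem35a, Pacsin1 and Penk and 3972 CPM in the cluster led by Meis2 and Piezo2. The latter also carried the capillary markers Car4, Rgcc, Kdr and Btnl9, none among its leading genes, and had Cldn5 at 46.9 CPM, unlike the capillary-like class. Interferon-like TECs were at 2013 CPM and tip-like TECs at 1000 CPM. Cldn5, Cldn15, Jam3 and Plvap were the 4 members that spread by 10-fold or more over the vessel classes, a spread that 4.72% of all genes reached.

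The caveola genes moved together over the normal classes. Cav1 (chr6:17306335-17341452, + strand) was at 1147 CPM in NECs and 893 in TECs, a log2 ratio of -0.36 (-0.41 to -0.31). It was at 2173 CPM in capillary-like, 1356 in arterial-like, 800 in venous-like and 423 in HEV-like cells, so TECs were close to the venous-like level. Cavin1 (chr11:100956733-100970887, - strand) was at 654 and 302 CPM, a log2 ratio of -1.12 (-1.20 to -1.04). Its normal classes had the same order, 1199, 750, 682 and 191 CPM. TECs had 2.26-fold less Cavin1 than venous-like cells but 1.12-fold more Cav1. Over 17 NEC clusters the Pearson correlation of the log levels was 0.91 for Cav1 with Cavin1 and -0.92 for Cav1 with Plvap. These are descriptions of clusters of 1 library, which share its depth and its free RNA.

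**Figure D3:**
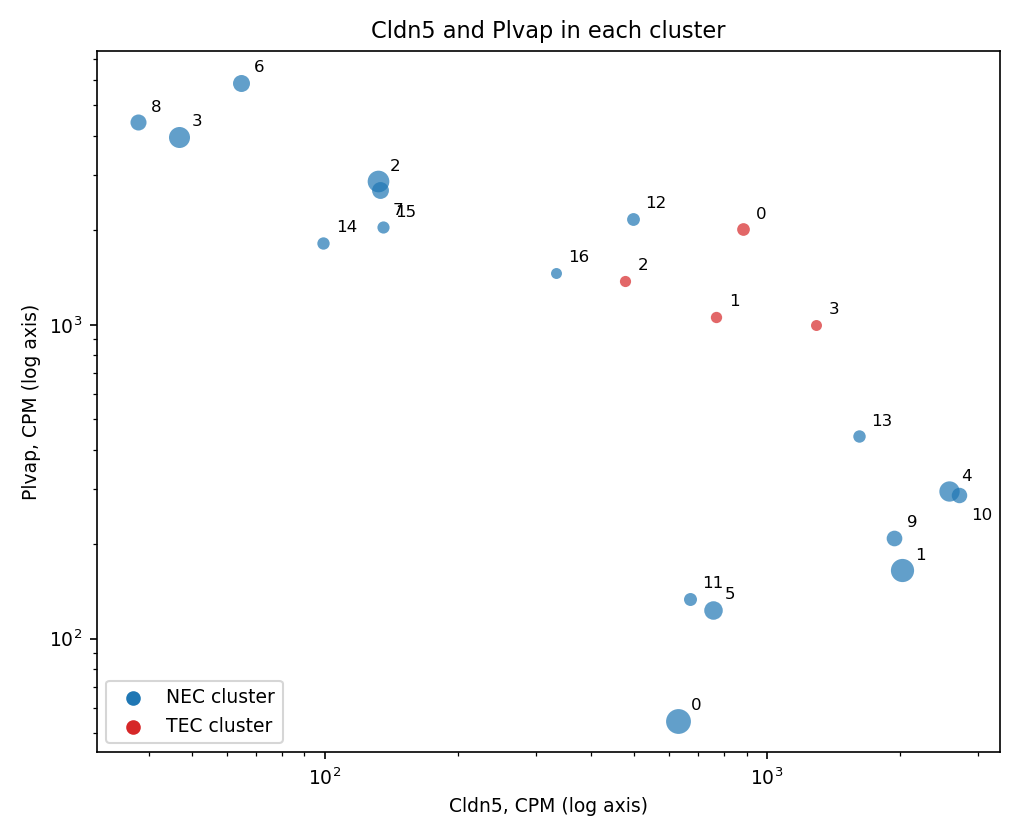
Plvap against Cldn5 in CPM, both on log axes, in each NEC cluster (blue) and TEC cluster (red), with dot area growing with the number of cells and cluster numbers beside the dots. Most NEC clusters are rich in Plvap and poor in Cldn5 or the reverse. The 4 TEC clusters have both genes, with Cldn5 from 478 to 1292 CPM and Plvap from 1000 to 2013 CPM. They lie near NEC cluster 12 and NEC cluster 16, whose 46 cells carry pericyte, smooth muscle and fibroblast markers.

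Whether the tumor level of both genes came from a mix of cells or from the same cells was looked at cell by cell at 1900 UMIs. A UMI of Cldn5 was found in 42.9% of 3831 NECs and 60.3% of 239 TECs, and one of Plvap in 57.8% and 82.4%. Both genes were found in 10.8% of NECs (9.82 to 11.8) and 50.2% of TECs (43.7 to 56.7). Multiplying the shares of the single genes gives 24.8% for NECs and 49.7% for TECs, so both genes met in fewer NECs than this product and in about as many TECs. Within the normal classes the share and its product were closer, 24.0% and 26.5% in arterial-like, 11.7% and 14.3% in venous-like, 8.37% and 8.85% in capillary-like and 11.9% and 13.4% in HEV-like cells, each share below its product. Without thinning, both genes were found in 15.6% of all NECs and 85.4% of all TECs. At 1900 UMIs the share with both ran from 37.7% to 59.6% over the TEC clusters. Of cells with at least 3 UMIs of these 2 genes, 9.08% of 2665 NECs and 54.0% of 161 TECs drew 20% to 80% of them from Plvap. Cancer-marked cells of the tumor library and epithelial-marked cells of the normal library were picked to have no UMI of Cdh5 or Pecam1. In the cancer-marked cells, Cldn5 was found in 0% and Plvap in 0.855% of thinned cells (median depth before thinning 48895 UMIs). In the epithelial-marked cells the shares were 2.06% and 2.35% (10806 UMIs). Since that choice left out cells with RNA of Cdh5 or Pecam1, these shares cannot measure free RNA or doublets. No doublet caller was run. Without the deepest 5% of cells the shares with both were 10.2% and 51.3%.

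**Figure D4:**
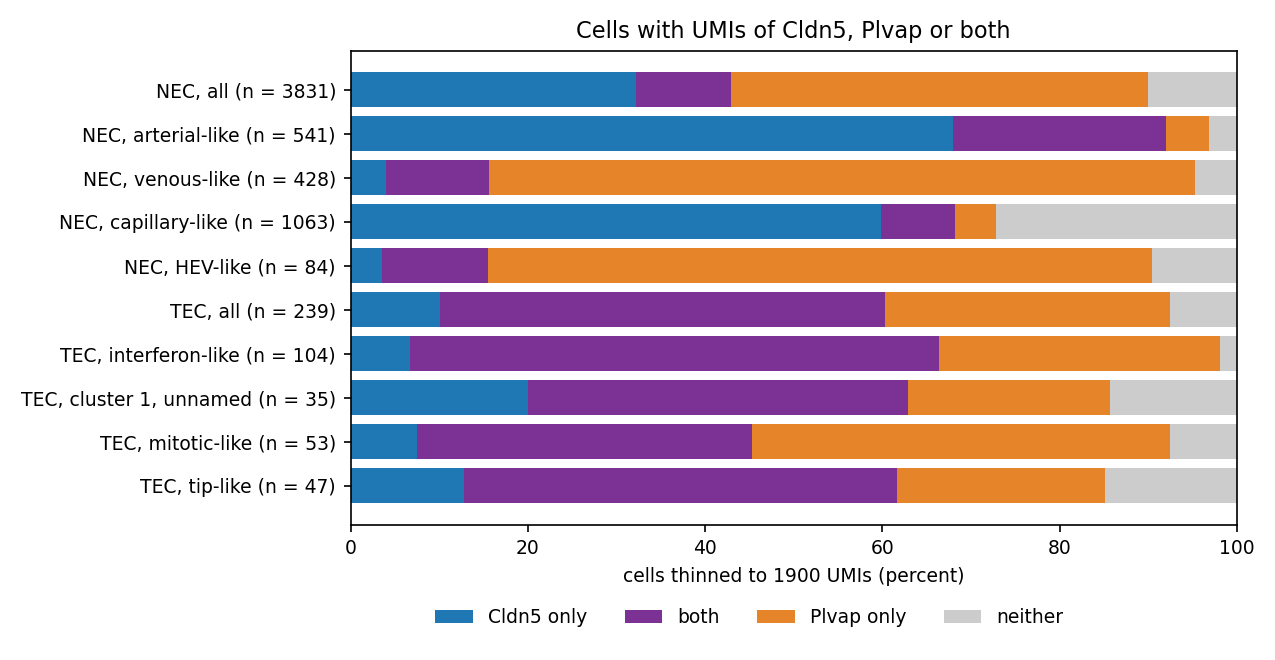
Share of cells thinned to 1900 UMIs with a UMI of Cldn5 only, of both genes, of Plvap only or of neither, by library, normal vessel class and TEC cluster. Cells with both make up 10.8% of NECs and 50.2% of TECs.

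Promoter sequences are shown for the main claudin and the caveola pair, whose levels were all higher in capillary-like and arterial-like than in venous-like and HEV-like cells. RefSeq tables on GRCm38.p6 held windows for 6 of the 10 genes, namely Cldn5, Cldn15, Ocln, Tjp1, Cav1 and Cavin1, in 9 windows. Another Cav1 window (chr6:17307390-17307639, + strand), without a match to any motif searched, is not printed. The 250 bases before the RefSeq start site are printed 5′ to 3′ on the gene's strand for Cldn5 (chr16:18776597-18776846, + strand), Cav1 (chr6:17306085-17306334, + strand) and Cavin1 (chr11:100970618-100970867, - strand), with motif matches in capitals. The Cavin1 window lies inside the GENCODE span given for that gene above, so it precedes the RefSeq start but not the GENCODE start.
Cldn5: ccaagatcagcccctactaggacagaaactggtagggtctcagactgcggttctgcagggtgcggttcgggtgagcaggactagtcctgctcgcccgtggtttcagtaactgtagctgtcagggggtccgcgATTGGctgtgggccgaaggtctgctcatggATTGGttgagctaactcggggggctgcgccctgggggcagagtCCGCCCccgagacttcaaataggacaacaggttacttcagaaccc
Cav1: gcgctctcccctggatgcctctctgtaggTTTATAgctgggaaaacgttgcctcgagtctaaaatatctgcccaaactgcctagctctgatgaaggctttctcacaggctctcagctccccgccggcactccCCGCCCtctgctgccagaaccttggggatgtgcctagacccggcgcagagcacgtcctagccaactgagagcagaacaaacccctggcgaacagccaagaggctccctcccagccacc
Cavin1: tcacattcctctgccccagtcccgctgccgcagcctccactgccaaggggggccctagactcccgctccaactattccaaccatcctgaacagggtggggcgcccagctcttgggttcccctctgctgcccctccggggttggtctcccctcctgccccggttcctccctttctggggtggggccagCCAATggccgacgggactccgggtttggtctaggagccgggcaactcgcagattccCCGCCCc

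The capitals mark exact matches on either strand to the letters searched for, and no match overlapped another in these 3 windows. The GC box was searched as GGGCGG and the TATA box as TATAAA. An ETS factor motif was searched as CCGGAA, a FOX factor motif as TGTTTAC and a SOX factor motif as ACAAAG. The CCAAT box was searched by the letters of its name. A GC box was in 8 of the 9 windows and in 32.7% of all 32851 windows, while the 9 windows had 59.6% to 69.2% G and C against a median of 52.4% for all. The 9 windows are not 9 separate regions, since both Cavin1 windows are nearly the same bases and hold the same GC box. At least 1 CCAAT match was in 4 of the 9 windows (Cldn5, both of Cavin1 and 1 of Ocln) and in 33.8% of all windows. A TATA match was in 1 of the 9 (Cav1) and in 12.4% of all. ETS letters, in 12.0% of all windows, were in 1 of the 9 windows (Ocln), and FOX and SOX letters, in 3.17% and 16.5%, were in none.

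For Cldn5, Cldn15, Plvap and Cav1, the 4 genes chosen for this, the genes with the most similar levels over all 21 clusters are given. For Cldn5 the 3 closest were Myh10, a non-muscle myosin (r = 0.84), Cdh13, T-cadherin (0.84), and Gfod1 (0.83). Cldn15 was followed by Tpst1 (0.90), Rfxap (0.89) and Pparg, a nuclear receptor of lipid metabolism (0.87). Plvap was closest to Ehd4, an EH domain protein of membrane traffic (0.94), Tmem176a (0.91) and Tmem176b (0.91), and Cav1 to Ctnna1, the junction protein alpha-catenin (0.90), its partner caveolin-2, Cav2 (0.90), and Jcad (0.88).

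Other genes of these structures were compared by lists. Of 20 adherens junction genes 17 were tested, with 4 lower (23.5%, against 17.7% of all genes) and 1 higher by 2-fold (5.88%, against 10.3%). Pkp4, a plakophilin (log2 -2.76), Ptprb, the endothelial phosphatase VE-PTP (-2.04), Afdn, afadin (-2.01), and Jup, plakoglobin (-1.79), were lower in TECs, and Nectin2 (1.83) was higher. Pcdh1 had a ratio of 0.92. Of 15 caveola genes 11 were tested, and Cavin2 alone passed 2-fold, from 1266 CPM in NECs to 232 in TECs (log2 -2.45, -2.53 to -2.36), so 9.09% were lower against 17.7% of all genes. Its relative Cavin3 went the other way by less (0.66), and Ehd1 (-0.88), Ehd4 (-0.72), Pacsin2 (-0.63) and Ehd2 (-0.60) were below 0. Of 37 tight junction genes 28 were listed in both tables and 10 were tested, with Cldn4 higher (1.62) and Mpdz (-1.37) and Mpp5 (-1.01) lower, which is 10% higher and 20% lower, near the 10.3% and 17.7% of all genes. Magi1 had -0.86, and the low-count claudins Cldn34c1 and Cldn12, not tested, had -1.62 and -1.25. Of 19 junction regulators 17 were tested, with the same shares as the adherens junction list, 4 lower and 1 higher. Angpt2, the ligand that destabilizes vessels, was at 18.5 CPM in NECs and 523 in TECs (log2 4.82, 4.66 to 5.00), and its receptor Tek was lower (-1.74), as were Snai2 (-2.11), Snai1 (-1.34) and Foxo1 (-1.06). Erg, a transcription factor of endothelial identity, had -0.99. The medians of the 4 lists were -0.29, -0.50, -0.39 and -0.40, in the order given, and so were below that of all genes.

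**Figure D5:**
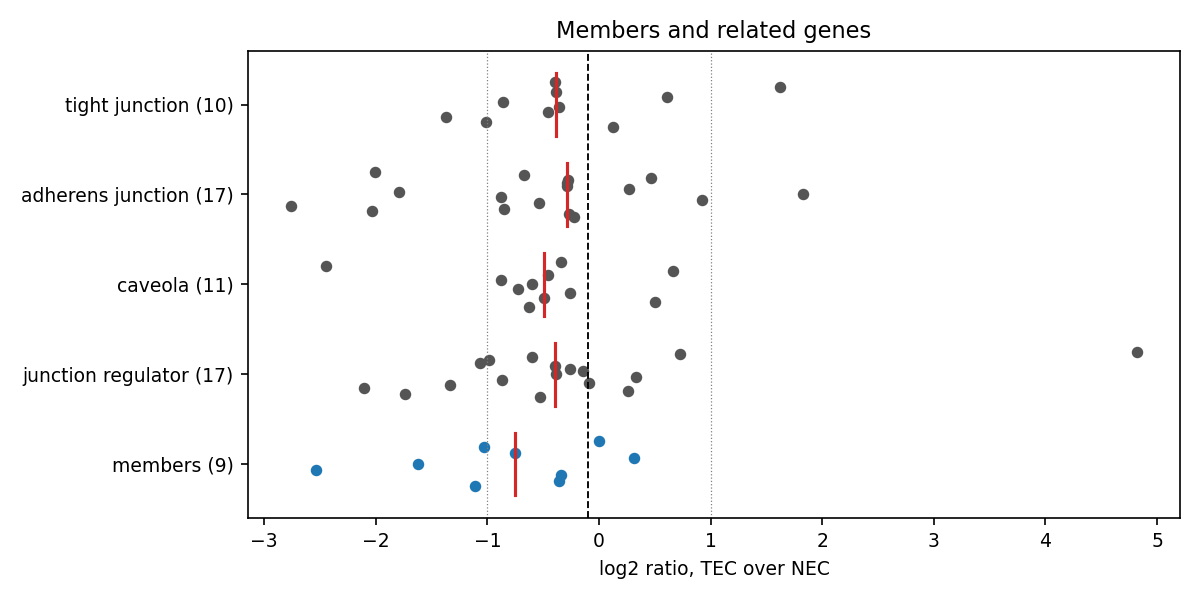
Log2 ratio of TECs over NECs for each tested gene of the 4 related lists and for the 9 tested members (blue), with the number tested in brackets, the median of each list as a red line and the median of all genes as a dashed line. Angpt2 (4.82) stands apart on the right, and the members have the lowest median, -0.75.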

How the data were processed

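The data are 1 library of NECs and 1 of TECs. The deposited values are whole-number UMI counts per gene and barcode, not normalized, which the authors made with Cell Ranger. The submitters' processing notes name mm10, and the Cell Ranger version is not given in the sources used here. The shallowest barcodes had 500 UMIs in the NEC table and 510 in the TEC table. Cells were selected by the filters given with the results. UMIs were summed over cells and scaled to 1000000. Sums have exact Poisson, shares Clopper-Pearson and ratios exact conditional binomial intervals. Background genes had a mean of at least 10 CPM over both libraries. For equal depth, cells were thinned at random to 1900 UMIs, which left out 1109 NECs and 22 TECs. Each library was clustered in Seurat 5.3.0 (R 4.3.3; LogNormalize, 4000 variable genes, 20 PCs, 20 neighbors, resolution 0.8), and a cluster was named when at least 3 markers of 1 of 16 lists were in 25% of its cells at 2-fold, with 1 among its top 10 genes and no other list with more. Sums used Python 3.11.15, numpy 2.4.6, scipy 1.17.1 and pandas 2.3.3. The ratio and its interval were tried on simulated Poisson counts, the model that the interval assumes. Such counts hold no spread between cells, animals or libraries. All members are named, and of each related list up to 6 genes with the largest ratio in size among those with 10 UMIs in each library. Likeness, given for Cldn5, Cldn15, Plvap and Cav1 by the same rule, is the Pearson correlation of log2(CPM + 10) over clusters among genes reaching 50 CPM in a cluster. Positions are from GENCODE M21. The members and lists were chosen with earlier results of these data known.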

Additional observations from a re-analysis of the deposited data

Results flagged for a closer look

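Ocln and Cavin1 were measured above the level over all endothelial cells of their library in cells that the rule left out, which the comparisons do not use. Ocln was at 37.2 CPM in epithelial-marked cells of the normal library (345 UMIs in 698 cells), against 0.75 CPM in NECs. In cancer-marked cells of the tumor library Ocln was at 3.23 CPM (20 UMIs in 117 cells), against 0.215 CPM in TECs. Cavin1 was at 748 CPM in mural-marked cells of the normal library (801 UMIs in 197 cells), against 654 CPM in all NECs, 750 in arterial-like and 1199 in capillary-like NECs.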

How the results depend on the processing

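Without the gate on Cdh5, Pecam1 and the cancer genes (456 tumor and 5200 normal cells), 9 members were lower by 2-fold in TECs and their median log2 ratio was -1.95, with Cldn5 at -1.66 and Esam turning from 0.31 to -1.33. With cells bearing UMIs of Ptprc, Myh11, Epcam or Cspg4 kept, 2 were lower, the median was -0.49 and Cldn5 was at 0.35. With a mean over cells in place of summed UMIs the median was -0.90 and 1 member, Tjp1, was below every normal vessel class. The number of members above every class was 0 with 10 principal components, with 30, with a resolution of 0.4, and with the unnamed and mitotic-like clusters added to the normal groups, which was chosen after seeing the data. Sorting each cell by at least 2 markers of 1 list, as planned, left 13 arterial-like, 5 venous-like and 2 HEV-like cells and gave no value. A sort to the list with the largest share of markers, chosen after that was seen, kept the highest class of 5 of 9 members. The cause of these shifts was not tested. Cldn15 passed 2-fold in the main comparison at -1.03 but not, with 3 members then lower, when both Cdh5 and Pecam1 were required (-0.95), tumor cells with any cancer-gene UMI were left out (-0.89), the 5% deepest cells were left out (-0.93), cells were averaged (-0.90) or the median ratio was set to 1 (-0.94). Of the alternative values of the member ratios, 42 moved beyond the counting interval and 66 did not. No paired analysis was possible because each group has 1 library. Depth limits Ocln, with 13 and 1 UMIs, and the levels of Cldn15 in small clusters.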
